A study of Homo sapiens with 12 samples.

Results

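GATA6, FOXA1, FOXA2, HNF4A, HNF4G, KLF5, ELF3 and SOX9 are transcription factors that set epithelial and ductal identity in the pancreas and in pancreatic cancer. These 8 genes were listed by name and were found in the deposited count files by pairing Ensembl gene IDs with symbols. All 8 were present among the 57820 gene IDs. The low-count filter kept 7 of them for testing and removed FOXA2, which had at most 1 count in any library.

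Poly(A)-selected RNA came from AsPC-1, an established human pancreatic cancer line, in 4 groups of 3 replicates (A, B and C). In every group the wells had been transfected with Lipofectamine RNAiMAX, were split on the following day, and were harvested 48 h after transfection. Normoxia siControl received a scrambled siRNA and stayed at 21% O2, and Normoxia siARNT received an siRNA against ARNT at 21% O2. Hypoxia siControl and Hypoxia siARNT received the same reagents and spent 24 h at 1% O2. The model is a single line, the siRNA lowers ARNT without deleting it, and nothing in the labels says that the triplicate wells were independent cultures, so p-values measure the spread between these wells. In bulk RNA, a change in the share of cells that make a transcript and a change in transcript per cell cannot be told apart.

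Lineage factors of this kind bind enhancers of epithelial genes, often together, and hold a cell in its differentiated program. In pancreatic cancer GATA6, HNF4A and the FOXA proteins are known for the classical, gland-forming tumour state, KLF5 and ELF3 for epithelial gene expression, and SOX9 for the ductal and progenitor compartment. ARNT is the partner that the hypoxia-inducible HIF alpha subunits need to bind DNA, so siARNT tests how far a response to low oxygen depends on it.

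The libraries held 38.53 to 84.34 M counts in genes. ARNT was 62.4 ± 1.53 counts per M scaled by TMM (CPM; SD, n = 3) in Normoxia siControl and 13.4 ± 0.56 in Normoxia siARNT, and in hypoxia it was 69.1 ± 3.81 and 15.3 ± 1.04. CA9, a carbonic anhydrase known as a HIF target, rose by 3.27 ± 0.17 (log2, SE) in hypoxia with siControl (edgeR quasi-likelihood test, adjusted p = 4.40e-07). With siARNT its hypoxia difference was 0.24 ± 0.16 (adjusted p = 0.414), from a normoxic level that siARNT had raised (0.90 ± 0.16, adjusted p = 0.00346). EGLN3, also a HIF target, still rose with hypoxia in siARNT, by 0.71 ± 0.08 (adjusted p = 0.0018), against 3.29 ± 0.08 in siControl. Of 8 ductal and epithelial markers 7 were measured above the filter, with a summed level of 3706 to 8093 CPM that was highest in Normoxia siARNT (5219 to 8093 CPM), while CFTR had at most 3 counts. Acinar markers summed to 0.0557 to 0.408 CPM with 7 of 8 at 3 counts or fewer, endocrine markers to 0.875 to 1.67 CPM with 4 of 6 at 3 counts or fewer, and immune and endothelial markers to 0.794 to 1.91 CPM. Fibroblast markers summed to 336 to 594 CPM, nearly all of it from LUM (lumican), with 402 to 456 CPM in Normoxia siControl and 568 to 594 CPM in Hypoxia siControl, while COL1A1 and COL1A2 had at most 8 and 10 counts in a library. Their part in the results below was not tested. Across genes, library levels also tilted with GC content, by -0.21 to 0.42 log2 units per 10 percentage points. The strongest tilts toward GC-rich genes were in Normoxia siARNT B (0.42), Hypoxia siARNT C (0.24) and Hypoxia siControl B (0.12), and the strongest the other way was in Normoxia siControl A (-0.21).

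Per kb of exon, KLF5 was the most abundant of the 8 factors in Normoxia siControl, at 62.3 ± 5.03 RPKM (reads per kb per M; SD, n = 3), a level above that of 96.9% of tested genes with a known length. HNF4G followed at 18.1 ± 0.934 RPKM. HNF4A (12.2 ± 0.64), ELF3 (11.7 ± 1.11) and SOX9 (11.5 ± 0.371 RPKM) came next, and neighbours in that order overlapped between libraries. GATA6 stood below them at 9.9 ± 0.188 RPKM and FOXA1 at 2.22 ± 0.0873 RPKM, close to the median tested gene at 2.4 RPKM. The order depends on the exon length used, 7311 bases for HNF4A and 7191 for ELF3 against 4806 for HNF4G. Without division by length, HNF4A (88.9 CPM), HNF4G (87.1 CPM) and ELF3 (83.9 CPM) lay close together in Normoxia siControl. FOXA2, a second forkhead factor of endodermal tissues, was listed at 0 or 1 count in each of the 12 libraries and is at the floor in all 4 groups.

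**Figure D1:**
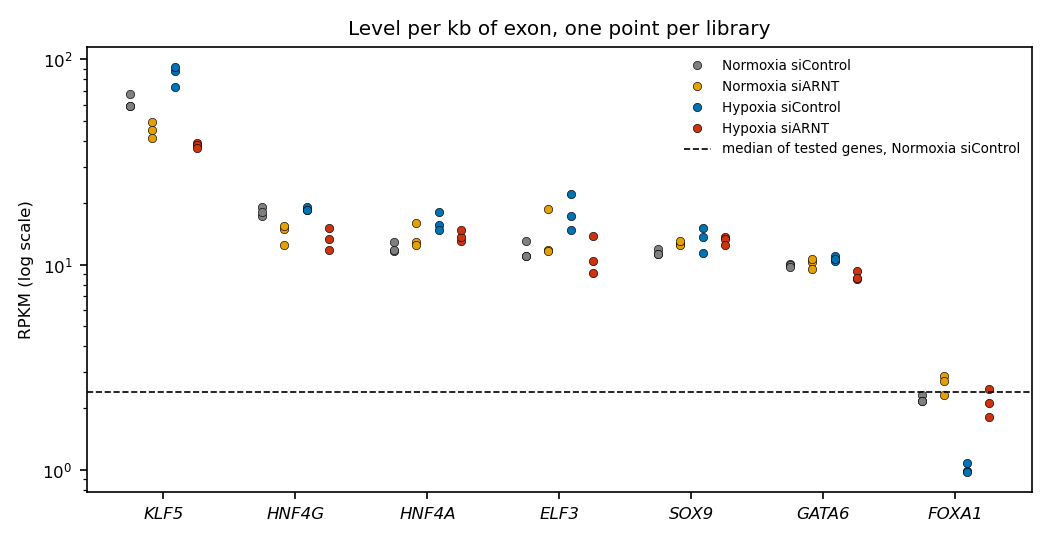
Level per kb of exon (RPKM, log axis) of the 7 tested factors in each library, coloured by group, with the median of tested genes in Normoxia siControl as a dashed line. KLF5 lies highest in all 4 groups, and FOXA1 is the factor near the median, with its Hypoxia siControl libraries at about 1 RPKM.

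In siControl cells hypoxia changed 4 of the 7 tested factors, with KLF5, HNF4A and ELF3 higher and FOXA1 lower (edgeR quasi-likelihood test, adjusted p under 0.05). Over all 16999 tested genes 25.3% were called, 10.4% higher and 14.9% lower. In siARNT cells none of the 7 was called for hypoxia by edgeR or by DESeq2, against 4.09% of genes (2.21% higher, 1.89% lower). GATA6, FOXA1 and KLF5 had an unadjusted edgeR p under 0.05, all with negative differences. The share of all genes at that looser cutoff was not counted, so it cannot be said whether this is unusual. The median difference of the 7 factors was 0.21 in siControl and -0.20 in siARNT on the log2 scale, beside 0.02 and -0.04 over all tested genes.

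The siRNA against ARNT changed 2 factors in normoxia, both lower (HNF4G and KLF5), against 20.2% of genes called, 9.42% higher and 10.8% lower. In hypoxia it changed 5: KLF5, ELF3, HNF4G and GATA6 were lower and FOXA1 was higher, against 29.1% of genes called, 14.4% higher and 14.7% lower. The median difference was 0.14 in normoxia and -0.27 in hypoxia, beside 0.01 and 0.02 over all genes. The hypoxia difference itself differed between siARNT and siControl for FOXA1 and KLF5, 2 of the 7, while 4.69% of all genes were called for that interaction, 2.49% with a positive and 2.19% with a negative value. The comparisons share libraries: hypoxia in siControl and siARNT in hypoxia both use the Hypoxia siControl samples, with opposite sign, so their results are not independent of each other.

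**Figure D2:**
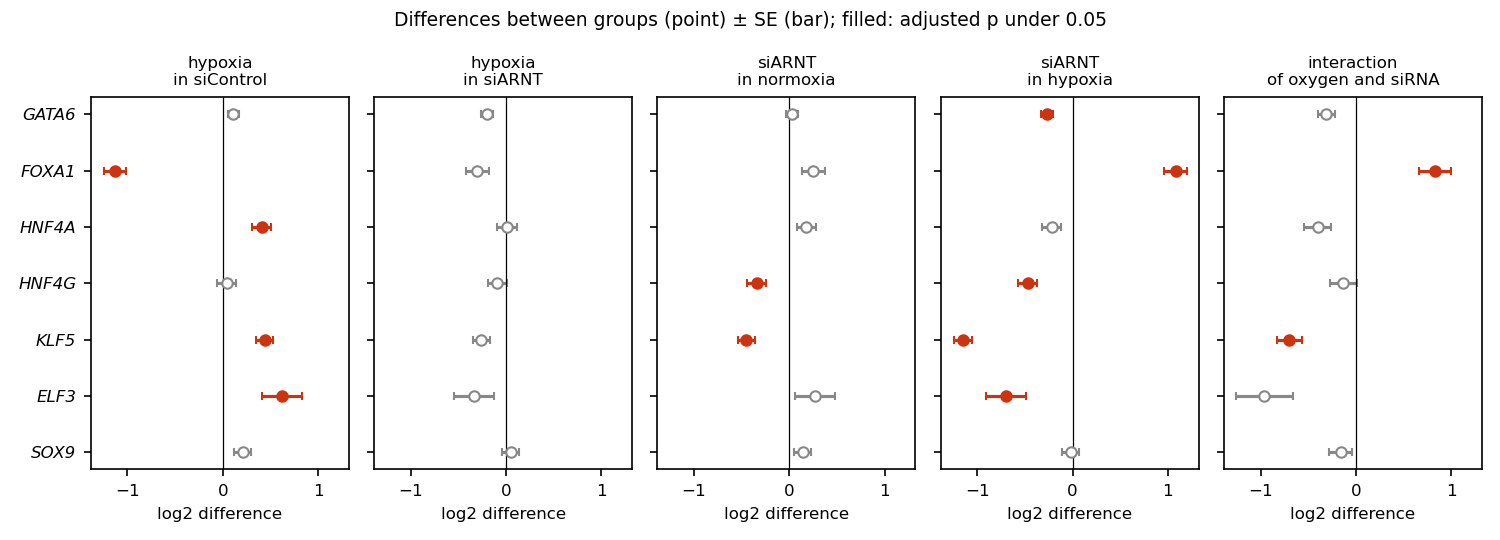
Log2 difference (point) and its SE (bar) for the 7 tested factors in the 5 comparisons, 3 libraries a group, filled where the adjusted p was under 0.05. FOXA1 runs opposite to KLF5 and ELF3 in hypoxia with siControl (-1.13 against 0.44 and 0.62) and in siARNT under hypoxia (1.08 against -1.15 and -0.70).

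FOXA1 is a forkhead factor that opens closed chromatin and lets other factors bind. Its level was 9.23, 8.66 and 8.6 CPM in replicates A, B and C of Normoxia siControl, and 4.28, 3.93 and 3.88 CPM in Hypoxia siControl. With siARNT it was 11.4, 9.25 and 10.8 CPM in normoxia and 9.84, 8.43 and 7.23 CPM in hypoxia. The Hypoxia siControl libraries were thus the 3 lowest of all 12, and no other group overlapped them. The mean was 2.19-fold lower in hypoxia with siControl (log2 difference -1.13 ± 0.12 SE, edgeR adjusted p = 6.56e-05), a change that 2.66% of tested genes matched or exceeded in size. With siARNT the hypoxia difference was -0.30 ± 0.12 (adjusted p = 0.181) and the groups overlapped. In hypoxia siARNT gave a mean 2.11-fold above siControl (1.08 ± 0.12, adjusted p = 6.05e-05), and in normoxia the difference was 0.25 ± 0.12 (adjusted p = 0.15). The interaction was 0.83 ± 0.17 (adjusted p = 0.0214). That last call was lost when any one of Normoxia siControl A, B or C, Hypoxia siControl B or Hypoxia siARNT B was left out (adjusted p from 0.0518 to 0.0669), with log2 values of 0.80 to 0.85. TTC6, which overlaps FOXA1 on the other strand, had 196 counts in all 12 libraries together.

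FOXA1 lies at chr14:37589984-37596059 on the minus strand of GRCh38 (GENCODE 29). Its sequence before the RefSeq start (GRCh38.p14) is shown in part, up to where an exon of GENCODE 29 begins. FOXA1 was chosen because it had the largest hypoxia change of the 7. The cores ACGTG and GCGTG were sought because HIF with ARNT is known to bind them. These 151 bases, chr14:37595349-37595499 on the minus strand, lie outside all FOXA1 exons of GENCODE 29 but inside the gene, in an intron of 1 transcript that begins further upstream. They stop short of the RefSeq start, because the bases between them and that start reach into an exon and are left out. The printed bases contain neither core on either strand, so no letter is in capitals.
FOXA1 upstream: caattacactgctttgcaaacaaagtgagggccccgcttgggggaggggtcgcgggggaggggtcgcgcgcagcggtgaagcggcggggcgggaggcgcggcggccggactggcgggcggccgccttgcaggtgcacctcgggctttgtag

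KLF5 is a zinc finger factor of gut and gland epithelium, and it was the most abundant of the 8 factors. It measured 265, 230.4 and 232 CPM in Normoxia siControl and 341, 356 and 287 CPM in Hypoxia siControl. With siARNT it measured 176, 161 and 194 CPM in normoxia and 152, 148 and 143 CPM in hypoxia. All 6 siARNT libraries lay below all 6 siControl libraries, and the 3 Hypoxia siControl libraries were the highest. Hypoxia raised KLF5 1.35-fold in siControl (0.44 ± 0.09, edgeR adjusted p = 0.0047). With siARNT the hypoxia difference was -0.26 ± 0.09 (adjusted p = 0.139), with every hypoxic library below every normoxic one. Groups that do not overlap, in either direction, were seen in 22.2% of tested genes. siARNT lowered it 1.37-fold in normoxia (-0.45 ± 0.09, adjusted p = 0.0063) and 2.22-fold in hypoxia (-1.15 ± 0.09, adjusted p = 4.01e-06). A change as large as the one in hypoxia was seen in 3.62% of tested genes. The interaction was -0.70 ± 0.13 (adjusted p = 0.0134), and it was no longer called without Normoxia siControl C (adjusted p = 0.0573) or without Hypoxia siControl A (0.0504).

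KLF5 lies at chr13:73054976-73077542 on the plus strand of GRCh38. RefSeq gives it a pair of start sites. The 250 bases before the first, chr13:73054726-73054975, contain neither core. Behind the second start, inside the first exon of a coding KLF5 transcript in GENCODE 29, 1 ACGTG begins 16 bases after the start on the plus strand. The 30 bases around it are chr13:73059008-73059037, and the capitals mark the core.
KLF5 upstream: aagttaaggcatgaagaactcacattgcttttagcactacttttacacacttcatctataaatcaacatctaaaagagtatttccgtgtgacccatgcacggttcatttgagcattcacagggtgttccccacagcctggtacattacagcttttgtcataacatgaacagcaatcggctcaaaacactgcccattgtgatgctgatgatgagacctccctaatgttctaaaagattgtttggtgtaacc
KLF5 site: cgcggggcaggtACGTGcgctcgcggttct

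RefSeq windows of 250 bases before to 50 after the start were searched for 5 of the 8 genes (GATA6, FOXA1, HNF4A, KLF5 and ELF3, with 7 windows). None was searched for HNF4G, FOXA2 or SOX9. The KLF5 site was the only match to ACGTG or GCGTG on either strand in them. Of 35116 windows of the same length, 21.4% hold ACGTG, 36.5% hold GCGTG and 48.4% hold at least 1 of the cores. These matches describe letters in a short window and were not tied to binding.

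ELF3, an ETS-family factor of epithelial cells at chr1:202007945-202017188, had the same direction as KLF5 in hypoxia but a wider spread. It was 79.2, 93.1 and 79.4 CPM in Normoxia siControl and 123, 158 and 106 CPM in Hypoxia siControl. With siARNT it was 85.1, 134 and 83.4 CPM in normoxia and 65.7, 74.8 and 99.1 CPM in hypoxia. All Hypoxia siControl libraries lay above the Normoxia siControl and the Hypoxia siARNT libraries, and Normoxia siARNT B stood far above its own group. Hypoxia raised it 1.54-fold in siControl at the edge of the threshold (0.62 ± 0.21, edgeR adjusted p = 0.04997), and siARNT lowered it 1.62-fold in hypoxia (-0.70 ± 0.21, adjusted p = 0.0283). The other differences were -0.34 ± 0.21 for hypoxia in siARNT (adjusted p = 0.391) and 0.27 ± 0.21 for siARNT in normoxia (adjusted p = 0.371). The interaction was -0.96 ± 0.30 (adjusted p = 0.0958). It passed with DESeq2 (adjusted p = 0.0182) and without Hypoxia siARNT C (-1.15, adjusted p = 0.0437). The hypoxia call in siControl was lost in 8 of 12 fits that left out 1 library (any Normoxia siControl library, Normoxia siARNT A or C, Hypoxia siControl A or B, or Hypoxia siARNT B), with adjusted p up to 0.169 and a log2 difference of 0.47 without Hypoxia siControl B. It was also lost with total count scaling (0.60, adjusted p = 0.071) and with no filter on low counts (0.63, adjusted p = 0.176). The siARNT call in hypoxia was lost without Hypoxia siControl A or B or Hypoxia siARNT A or B (adjusted p from 0.0564 to 0.0953), with total count scaling (-0.61, adjusted p = 0.0606) and with no filter (-0.70, adjusted p = 0.114).

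ELF3 has a GC-rich transcript (56% GC) and in each of the 4 groups its highest library was the one whose tilt favoured GC-rich genes most. HNF4A (52.8% GC) was highest in the same libraries. GATA6 (55.3% GC) was instead the lowest of its group in Normoxia siARNT B (37.4 CPM) and Hypoxia siControl B (41 CPM). Whether GC content sets the spread of ELF3 was not tested. With a correction for GC content per library, the ELF3 differences were 0.55 for hypoxia in siControl (adjusted p = 4.13e-04), -0.75 for siARNT in hypoxia (adjusted p = 3.23e-05) and -0.74 for the interaction (adjusted p = 0.00224). For siARNT in normoxia the value was -0.02. Over all genes this correction called 7264 for hypoxia in siControl, 7827 for siARNT in hypoxia and 3139 for the interaction. Without it 4299, 4948 and 797 were called. ELF3 also overlaps ELF3-AS1, a noncoding RNA from the other strand (1266 counts in all), and AL691482.3 on its own strand (592 counts), and the strand setting of the counting is not given, so reads in shared exons cannot be assigned with certainty. ELF3-AS1 rose in hypoxia with siControl from 1.44 ± 0.0631 to 3.54 ± 1.08 CPM (1.29 ± 0.21, adjusted p = 0.00102) and was at 1.45 ± 0.0101 CPM in Hypoxia siARNT (siARNT in hypoxia -1.29 ± 0.22, adjusted p = 9.02e-04).

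**Figure D3:**
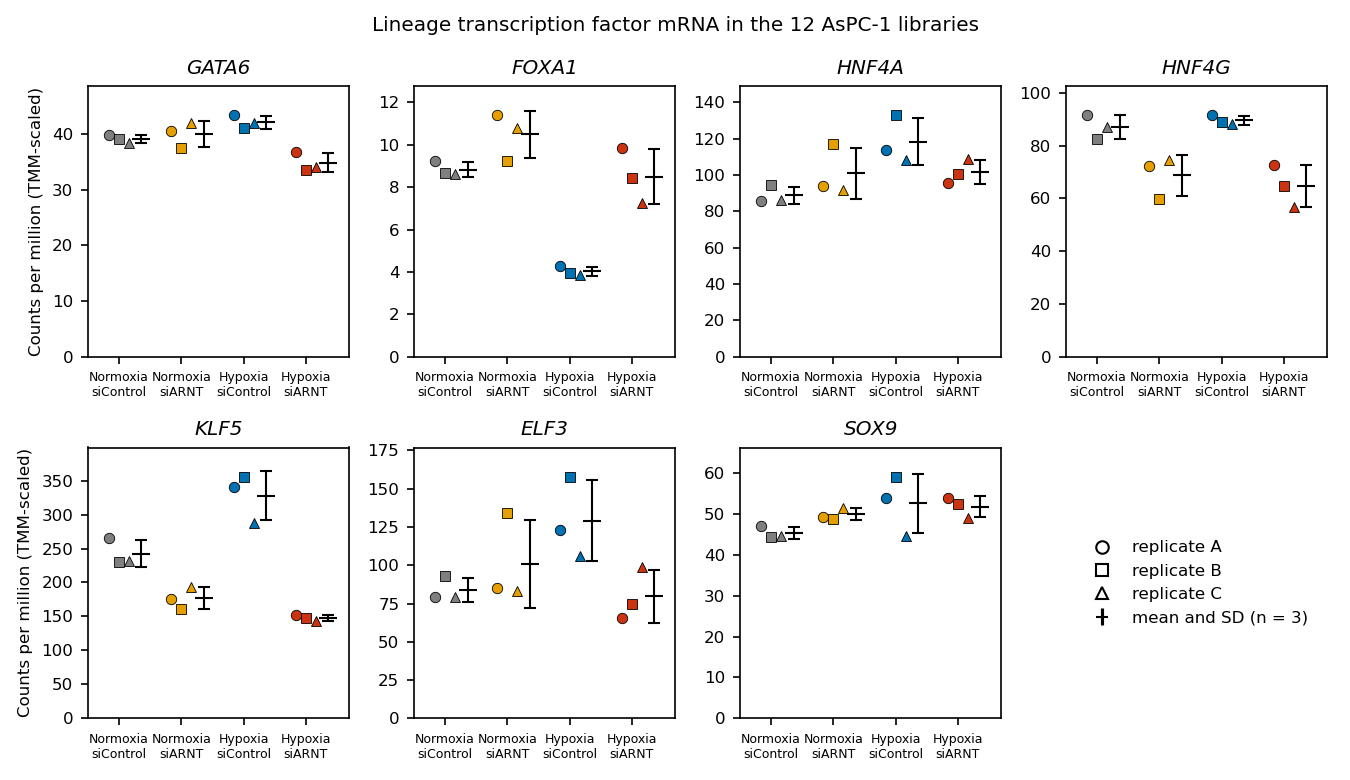
TMM-scaled counts per M of the 7 tested factors in each of the 12 libraries, with markers for replicates A to C and the mean and SD of each group beside them. FOXA1 is lowest in all 3 Hypoxia siControl libraries, KLF5 is highest there, and SOX9 stays between 44.4 and 59.2 CPM throughout.

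HNF4A and HNF4G are nuclear receptors of gut, liver and kidney epithelium that bind the same type of DNA element. HNF4A was called for hypoxia in siControl and HNF4G for siARNT, and the difference between the genes was not tested. HNF4A (chr20:44355700-44434596) was 85.9, 94.3 and 86.5 CPM in Normoxia siControl and 114, 133 and 108 CPM in Hypoxia siControl. With siARNT it was 94.1, 117 and 91.7 CPM in normoxia and 95.7, 100.4 and 109 CPM in hypoxia. The 2 siControl groups did not overlap, while the siARNT groups overlapped each other. Hypoxia raised HNF4A 1.33-fold in siControl (0.41 ± 0.10, edgeR adjusted p = 0.011). In siARNT its hypoxia difference was 0.01 ± 0.10 (adjusted p = 0.965, approximate 95% interval -0.19 to 0.21). The interaction was -0.40 ± 0.14 and did not pass (adjusted p = 0.141), although it did after GC correction (-0.32, adjusted p = 0.00319). siARNT gave 0.18 ± 0.10 in normoxia (adjusted p = 0.205) and -0.22 ± 0.10 in hypoxia (adjusted p = 0.131), which passed without Normoxia siARNT B (adjusted p = 0.048) and after GC correction (-0.26, adjusted p = 3.24e-04). GC correction called 3139 of all genes for the interaction and 7827 for siARNT in hypoxia, against 797 and 4948 without it.

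HNF4G, on chromosome 8, was at 91.6, 82.7 and 87 CPM in Normoxia siControl and at 91.6, 88.9 and 88.3 CPM in Hypoxia siControl. With siARNT it was at 72.1, 59.9 and 74.4 CPM in normoxia and at 72.6, 64.6 and 56.6 CPM in hypoxia. The siControl and siARNT libraries did not overlap at either oxygen level, and normoxia and hypoxia overlapped for both siRNAs. siARNT lowered HNF4G 1.27-fold in normoxia (-0.34 ± 0.10, edgeR adjusted p = 0.03) and 1.39-fold in hypoxia (-0.47 ± 0.10, adjusted p = 0.0033). The hypoxia differences were 0.04 ± 0.10 in siControl (adjusted p = 0.8, approximate 95% interval -0.15 to 0.23) and -0.09 ± 0.10 in siARNT (adjusted p = 0.618). The interaction was -0.13 ± 0.14 (adjusted p = 0.597). HNF4G is the most AT-rich of the 8 transcripts (35.9% GC), and its lowest siARNT libraries were the 2 whose tilt favoured GC-rich genes most. With GC correction the siARNT differences were -0.21 in normoxia (adjusted p = 2.97e-04) and -0.41 in hypoxia (adjusted p = 1.98e-07). The hypoxia difference in siControl and the interaction, not called otherwise, then passed with 0.10 (adjusted p = 0.0309) and -0.20 (adjusted p = 0.0145). In these comparisons the correction called 7264 and 3139 of all genes, against 4299 and 797 without it. The normoxia call was lost without Normoxia siControl A (adjusted p = 0.101), Normoxia siControl C (0.0801) or Normoxia siARNT B (0.083, log2 difference -0.26), and in a fit to only the 6 samples compared (0.0513).

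GATA6, a zinc finger factor of endoderm at chr18:22169443-22202528, was called in 1 comparison, siARNT in hypoxia. It was 39.8, 39.1 and 38.3 CPM in Normoxia siControl and 43.4, 41 and 41.9 CPM in Hypoxia siControl, ranges that do not touch, as for 46.8% of tested genes. With siARNT it was 40.5, 37.4 and 42 CPM in normoxia and 36.8, 33.6 and 34.1 CPM in hypoxia. The 3 Hypoxia siARNT libraries were the lowest of the 12. siARNT lowered GATA6 1.21-fold in hypoxia (-0.27 ± 0.06, edgeR adjusted p = 0.00591), a size that 49.2% of tested genes reached, and the call was lost with GC correction (-0.32, adjusted p = 0.128) but passed with GC correction and the replicate block (-0.32, adjusted p = 0.0458). The remaining differences were 0.11 ± 0.06 for hypoxia in siControl (adjusted p = 0.227), -0.20 ± 0.06 for hypoxia in siARNT (0.0943), 0.03 ± 0.06 for siARNT in normoxia (0.714) and -0.31 ± 0.09 for the interaction (0.071), which passed without Normoxia siARNT B (-0.34, adjusted p = 0.0463). GATA6-AS1, which overlaps GATA6 exons on the other strand, had 547 counts in all and rose with hypoxia in siControl from 0.74 ± 0.141 to 1.19 ± 0.131 CPM (adjusted p = 0.0139).

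SOX9, an HMG-box factor of pancreatic ducts and progenitors at chr17:72121020-72126420, was called in none of the 5 comparisons by edgeR or DESeq2, with 1, hypoxia in siControl, at an unadjusted p under 0.05 in edgeR. It was 47, 44.4 and 44.6 CPM in Normoxia siControl and 53.9, 59.2 and 44.7 CPM in Hypoxia siControl. With siARNT it was 49.4, 48.9 and 51.6 CPM in normoxia and 54, 52.5 and 49 CPM in hypoxia. Hypoxia siControl C lay within the normoxic range while A and B lay above it. The hypoxia difference was 0.21 ± 0.09 in siControl (edgeR adjusted p = 0.0993, approximate 95% interval 0.04 to 0.39), and without Hypoxia siControl C it was 0.32 and passed (adjusted p = 0.00664), as it did after GC correction (0.25, adjusted p = 0.0435). GC correction called 7264 of all genes for hypoxia in siControl, against 4299 without it. siARNT in hypoxia gave -0.02 ± 0.09 (approximate 95% interval -0.19 to 0.15), and siARNT in normoxia gave 0.14 ± 0.09 (adjusted p = 0.259).

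Counted over ranges instead of tests, the groups did not overlap for 5 of the 7 factors in hypoxia with siControl (46.8% of tested genes), for 2 in hypoxia with siARNT (22.2%), for 4 with siARNT in normoxia (46.5%) and for 5 with siARNT in hypoxia (40.3%).

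Transcript form was read from the deposited splicing events. The files list 19 events in 4 of the 8 genes: 3 in HNF4A, 7 in HNF4G, 4 in KLF5 and 5 in ELF3. With at least 20 inclusion plus exclusion counts in every library, 16 were tested. These are junction reads, except that the inclusion count of a retained intron is its mean read coverage. None was called in any comparison (limma on log2 odds of inclusion; smallest adjusted p of 0.845, 0.803, 0.729, 0.665 and 0.909 for hypoxia in siControl and in siARNT, the siARNT effect in normoxia and under hypoxia, and the interaction). At an unadjusted p under 0.05 there was 1, an alternative 3' splice site of HNF4A for siARNT in normoxia, and the share of all events at that cutoff was not counted. The test called few events anywhere: 0.0398%, 0.0497%, 0.0248%, 0.0447% and 0.0497% of 40247 events in the same order, so it sets a weak limit on changes in these genes.

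The values of the best covered event in each gene lay close together. In KLF5 an alternative 5' splice site (exon at chr13:73635999-73636343 as the event files give it, in a build they do not name) had a deposited inclusion share of 1.33 ± 1.15% (SD, n = 3) in Normoxia siControl, 2.33 ± 0.577% in Hypoxia siControl, 2.67 ± 0.577% in Normoxia siARNT and 2 ± 1% in Hypoxia siARNT. In ELF3 a pair of 5' splice sites that differ by 6 bases had shares of 4 ± 1%, 4.67 ± 1.53%, 3.33 ± 1.15% and 4.67 ± 2.31% in the same order. An exon of HNF4G was included at 100 ± 0%, 99.3 ± 1.15%, 99 ± 1% and 99.3 ± 1.15%. A 521-base intron of HNF4A was listed as retained at 98 ± 1.73%, 98.7 ± 1.15%, 98.3 ± 1.53% and 97.7 ± 2.08%. That share sets mean intron coverage against junction reads. The deposited shares are rounded to whole percent, so small shifts within such values cannot be seen.

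Among 20 other gut and pancreas lineage factors, 14 were tested. With hypoxia in siControl 3 rose and 2 fell (10.4% and 14.9% of all genes). PROX1 rose from 1.3 ± 0.117 to 2.87 ± 0.0877 CPM (1.15 ± 0.16, edgeR adjusted p = 3.47e-04), and its hypoxia difference with siARNT was 0.62 ± 0.16 (adjusted p = 0.0512). CDX2, an intestinal homeobox factor, rose from 8.98 ± 0.101 to 13.3 ± 1.58 CPM (0.57 ± 0.14, adjusted p = 0.0107). HHEX fell (-0.59 ± 0.12, adjusted p = 0.00406), as did EHF, an ETS factor related to ELF3, from 393 ± 11.6 to 324 ± 15.9 CPM (-0.28 ± 0.08, adjusted p = 0.0251). EHF thus ran opposite to ELF3 in that comparison. siARNT in hypoxia raised 1 of these 14 and lowered 5 (14.4% and 14.7% of all genes), CDX2 by the most (-1.01 ± 0.14, adjusted p = 2.54e-04), and 3 were called without Hypoxia siARNT B, with no filter or in the 6-sample fit.

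Of 13 near paralogues of the 8 factors, a list that shares KLF4, EHF, FOXA3 and GATA4 with the one before, 9 were tested. KLF4 and KLF6, relatives of KLF5, rose with hypoxia in siControl (0.56 ± 0.05 and 0.45 ± 0.05, edgeR adjusted p = 1.75e-05 and 7.62e-05), and GATA3, a relative of GATA6, fell (-0.70 ± 0.19, adjusted p = 0.0154). The interaction was called for KLF4 (-0.64 ± 0.07, adjusted p = 5.34e-04) and KLF6 (-0.36 ± 0.07, adjusted p = 0.0175), as it was for KLF5. In normoxia siARNT raised KLF4 (0.24 ± 0.05, adjusted p = 0.00735), where KLF5 fell. LINC00511, a noncoding RNA in the region of SOX9, rose with hypoxia in siControl from 19.4 ± 1.38 to 33.2 ± 1.22 CPM (0.77 ± 0.07, adjusted p = 2.00e-05) and was 10.1 ± 0.337 CPM in Hypoxia siARNT (siARNT in hypoxia -1.71 ± 0.07, adjusted p = 3.00e-08), while SOX9 itself was not called.

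Genes of the classical tumour state, which these factors are known for, were measured alongside. Of 24 listed genes 21 were tested: 14 rose and 1 fell with hypoxia in siControl (10.4% and 14.9% of all genes; median 0.53, beside 0.02 over all genes), and 9 were called without Normoxia siControl C. With siARNT 3 rose in hypoxia (2.21% of all genes, median 0.10) and none fell. Calls in either direction ran from 1 to 4 when 1 library was left out. They were 14 with GC correction, which called 3678 of all genes for this comparison against 696 without it. siARNT in hypoxia raised 3 and lowered 11 (14.4% and 14.7% of all genes; median -0.38). TFF2, a secreted trefoil peptide, went from 2.14 to 10.4 CPM with hypoxia in siControl (2.29 ± 0.18, edgeR adjusted p = 4.77e-06) and was 1.87 CPM in Hypoxia siARNT. AGR2, a secretory-pathway protein of gland cells, fell with hypoxia in siControl (-0.68 ± 0.10, adjusted p = 4.59e-04) and was raised by siARNT in hypoxia (0.70 ± 0.10, adjusted p = 2.60e-04), the directions FOXA1 had.

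Of 25 basal-like tumour genes 14 were tested, with 3 higher and 1 lower for hypoxia in siControl (10.4% and 14.9% of all genes) and 1 higher and 7 lower for siARNT in hypoxia (14.4% and 14.7%). The 4 calls for hypoxia in siControl became 8 with the replicate block, 8 with GC correction and 7 without Normoxia siARNT B. The highest were UCA1 (2.09 ± 0.20, edgeR adjusted p = 2.49e-05) and SLC2A1, the glucose transporter GLUT1 (1.94 ± 0.16, adjusted p = 1.35e-05). Among 14 squamous and mesenchymal state factors 10 were tested, with 1 higher and 2 lower for hypoxia in siControl (10.4% and 14.9% of all genes). TP63 (-0.85 ± 0.16, edgeR adjusted p = 0.00232) and FOSL1 (-0.36 ± 0.12, adjusted p = 0.046) fell while SNAI2 rose (0.30 ± 0.08, adjusted p = 0.0118). Of 12 gut and liver genes linked to HNF4A 8 were tested, and 2 rose and none fell with hypoxia in siControl (10.4% and 14.9% of all genes). The 2 were FABP1 (from 0.247 ± 0.0615 to 1.3 ± 0.102 CPM, edgeR adjusted p = 1.06e-04) and VIL1 (0.46 ± 0.10, adjusted p = 0.0046). siARNT in hypoxia lowered FABP1 (-2.71 ± 0.30, adjusted p = 4.54e-05) and raised APOB (1.99 ± 0.33, adjusted p = 8.48e-04).

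**Figure D4:**
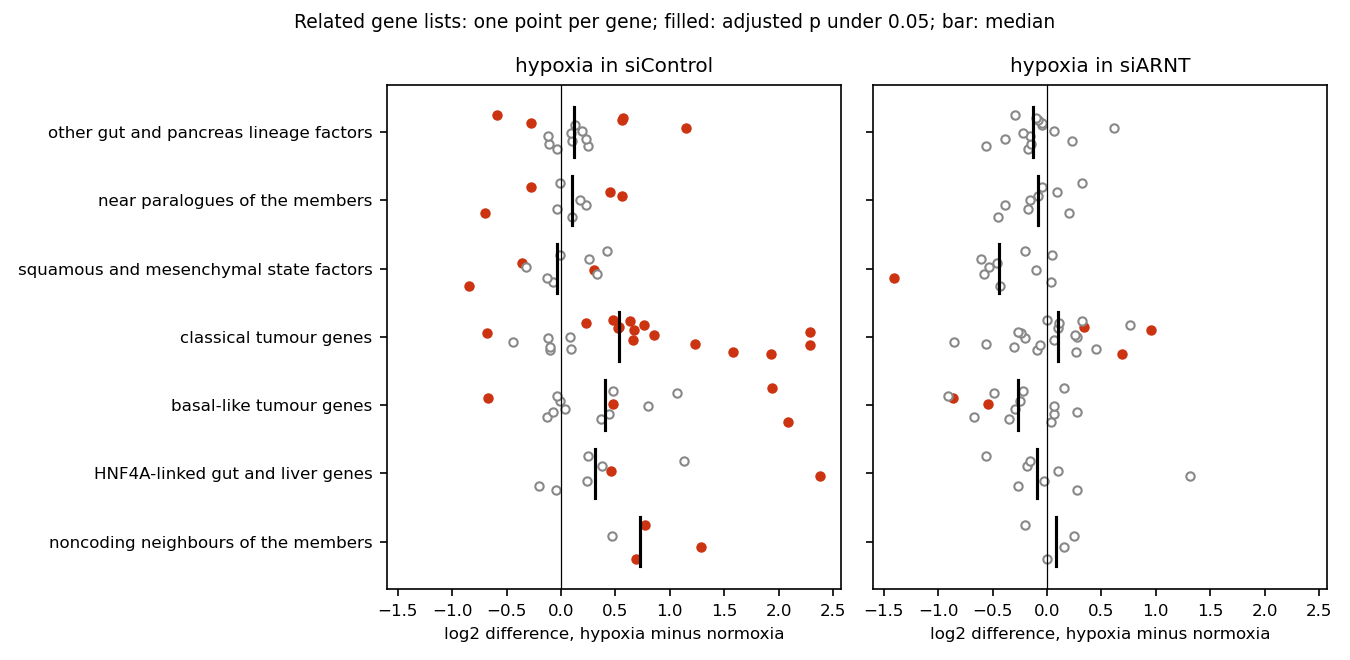
Log2 difference between hypoxia and normoxia for each tested gene of 7 related lists, in siControl (left) and siARNT (right), filled where the adjusted p was under 0.05, with a bar at the median. The classical tumour genes have a median of 0.53 in siControl and 0.10 in siARNT, and the noncoding neighbours 0.73 and 0.08.

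The genes whose levels ran most like each factor over the 12 libraries were listed by Pearson correlation of log2 CPM among 9855 genes, as a description, since all genes share the libraries and their groups. FOXA1 was closest to SLC7A6 (r = 0.993), SRPRB (0.990) and CTSC (0.989), and CTSC went from 142 CPM in Normoxia siControl to 84.1 CPM in Hypoxia siControl and 132 CPM in Hypoxia siARNT. KLF5 was closest to CDKN1B (0.984) and OTUD1 (0.979), HNF4G to LIMA1 (0.988) and GNAI1 (0.986), HNF4A to NHERF4 (0.990) and ARRB1 (0.989), and ELF3 to CAPN5 (0.988) and MISP (0.985). GATA6 and SOX9 had weaker matches, with PHLDB2 (0.909) and QKI (0.889) first.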

How the data were processed

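The authors deposited gene counts (whole read numbers for every gene ID) for 12 poly(A) libraries, stranded per the labels. The submitters' processing notes name Trimmomatic, STAR 2.4.2a and the build GRCh38.p10, with no role or order, and the counter's strand setting is not given in the sources used here. Lines that name no gene held 22.71 to 25.2% of reads and stayed out of library sizes and tests. The deposited splicing files give, per the file headers, junction counts, mean intron coverage and the inclusion share as a fraction, in a build they do not name. Their positions for HNF4A, HNF4G, KLF5 and ELF3 do not fall in those genes' GRCh38 spans, so none was converted.

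The 57820 gene IDs were paired with symbols for 51996, which hold 99.35% of counts. The count test was edgeR's quasi-likelihood test (version 4.0.16, in R 4.3.3) after TMM scaling and filterByExpr, which left 16999 genes. A single robust model with group means held all 12 samples, and p-values were adjusted by Benjamini-Hochberg over all genes within each of 5 comparisons. An adjusted p under 0.05 counted as a call. The interaction is the hypoxia difference in siARNT minus that in siControl. Splicing used limma 3.58.1 on log2 odds (pseudocount 0.5, minimum 20 inclusion plus exclusion counts in every library). RPKM used the exon union of GENCODE 29. Scripts were tested on simulated data. Every replicate pair differed by more than sampling noise (4.3 to 89.11 times the chi-square that noise gives), so each library counts once.

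The 8 factors and the gene lists were chosen with earlier results of these data known, so no list count is independent support. Named genes are the 8 factors, at most 2 genes per list and direction in a comparison, the treatment checks ARNT, CA9 and EGLN3, the 3 genes most like each factor, and the best covered event per gene. COL1A1, COL1A2 and LUM are named to show what the marker sum holds, and GATA6-AS1, AL691482.3 and TTC6 because they overlap a factor, all chosen after their values were seen. EGLN3, a HIF target, rose by 3.29 ± 0.08 (log2, SE) with hypoxia in siControl and by 0.71 ± 0.08 in siARNT. Alternatives were other scalings, DESeq2 1.42.0, no filter, 6-sample fits, replicate blocks, GC correction, leaving out each library, and a threshold of 0.01. The approximate intervals were set from the edgeR SE of each log2 difference, so they reflect the spread between libraries. They do not allow for the few libraries and can be too narrow. For FOXA1 with siARNT in normoxia the interval was 0.01 to 0.48, while the unadjusted edgeR quasi-likelihood p was 0.0631. Floors cover counting error only. RefSeq promoter windows were used for 5 of the 8 genes.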

Additional observations from a re-analysis of the deposited data

Results flagged for a closer look

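The hypoxia difference changed with the siRNA, by a test of that change itself, for 2 of the 7 tested factors. The hypoxia difference of FOXA1 was smaller with siARNT than with siControl, with an interaction of 0.83 ± 0.17 (log2, SE; edgeR adjusted p = 0.0214): its mean went from 8.83 to 4.03 CPM in siControl and from 10.5 to 8.5 CPM in siARNT. KLF5 had an interaction of -0.70 ± 0.13 (adjusted p = 0.0134): its mean went from 242 to 328 CPM in siControl and from 177 to 148 CPM in siARNT. All 3 hypoxic KLF5 libraries lay above the normoxic ones in siControl and below them in siARNT. Groups that do not overlap, in either direction, were seen in 46.8% of tested genes in siControl and 22.2% in siARNT. The hypoxia difference of KLF5 in siARNT was itself not called (-0.26 ± 0.09, edgeR adjusted p = 0.139). Over all genes 4.69% were called for this interaction. Both calls were made with 3 libraries a group and are lost without some single libraries, and why the differences depend on siARNT was not tested.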

How the results depend on the processing

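Whether the replicate letters pair the samples was unclear. Deviations of same-letter libraries from their group means correlated at 0.06 to 0.28 in hypoxia with siControl and -0.40 to 0.49 in hypoxia with siARNT. For siARNT they correlated at 0.06 to 0.38 in normoxia and -0.31 to 0.17 in hypoxia. Between different letters the ranges were -0.18 to 0.13, -0.61 to 0.60, -0.31 to 0.22 and -0.46 to 0.46 in the same order. With the letter as a replicate block the numbers of factors called were 4, 0, 2, 5 and 2 (interaction last), as without it, and the block changed no event call. At an adjusted p under 0.01 they were 2, 0, 1, 4 and 0, where 2553, 125, 1356, 3008 and 214 of all genes were called. Fits to only the 6 samples compared called 1 factor for siARNT in normoxia. GC correction called 5 for the interaction, without and with the block. Leaving out 1 library gave 3 to 5, 0 to 0, 1 to 2, 4 to 6 and 0 to 3. Over all genes those fits called 2873 to 5242, 129 to 707, 1571 to 4148, 3537 to 5847 and 272 to 1188. Signs turned only in differences that were not called: HNF4A for hypoxia in siARNT (-0.0017 with no filter; -0.04, -0.05 and -0.04 without Normoxia siARNT A, Normoxia siARNT C and Hypoxia siARNT C), GATA6 for siARNT in normoxia (-0.17 with GC correction, -0.18 with the block added, -0.003 without Normoxia siARNT C), ELF3 for siARNT in normoxia (-0.02, -0.02 and, without Normoxia siARNT B, -0.0034), and SOX9 for siARNT in hypoxia (0.06 with total count scaling, 0.0036 with 6 samples, 0.05 without Hypoxia siControl B, 0.02 without Hypoxia siARNT C). Over the fits that leave out 1 library these ran from -0.05 to 0.13, -0.003 to 0.07, -0.0034 to 0.38 and -0.13 to 0.05. The cause was not tested.

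Counts over all genes moved more. GC correction called 7264, 3678, 5544, 7827 and 3139 genes against 4299, 696, 3431, 4948 and 797. For hypoxia in siARNT the 6-sample fit called 22 and the transfected well as a block 136. Total count scaling called 1495 for the interaction (the well block 373), shifted the median for siARNT in hypoxia to 0.10, and moved the share of higher calls from 53.9 to 65.8% (hypoxia in siARNT), 49.6 to 63.8% (siARNT in hypoxia) and 53.2 to 75.3% (interaction). Splicing calls in these genes were 0 under each alternative, including weights from counts, which were added after seeing the data. At most 1 count per library leaves FOXA2 below what this depth can compare.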
